A study of Oryza sativa with 12 samples.

Results

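The genes described here are 10 cold regulators of rice: OsDREB1A, OsDREB1B and OsDREB1H, whose loci follow one another on chromosome 9, OsDREB1C, OsDREB1E, OsDREB1F and OsDREB1G on other chromosomes, OsDREB2A, OsICE1 and OsICE2. They were chosen by locus identifier, with earlier results of these data known. RefSeq carries their names on the same chromosome for 8 of them and not for OsICE1 and OsICE2, whose names rest on the choice of loci alone. All 10 were among the 55985 genes of the table. The RNA came from post-meiotic anthers of the cold-tolerant cultivar Erythroceros Hokkaido (ERY) and the cold-susceptible cultivar Sant'Andrea (S.AND), each after 1 night at 8 °C (COLD) or at 24 °C (CONTROL). The groups were therefore ERY COLD, ERY CONTROL, S.AND COLD and S.AND CONTROL, with 3 samples each and 12 in all, and each sample pooled the anthers of several plants. Every level below is the authors' normalized mean of a group, which they name RPKM. It is read density scaled by transcript length, so genes can be compared with one another per unit of length. In each group the means add up to 1e+06 over all genes of the table. A level is therefore a share of a fixed total. The table held 0 columns of values per sample. Hence no value has an SD here, and a ratio of means is given as a description without a test; the columns of the authors' own test were not used.

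In plants, ICE proteins are basic helix-loop-helix factors that bind the promoters of DREB1 genes, also called CBF genes, and raise their transcription in the cold. DREB1 proteins belong to the AP2/ERF family and bind the dehydration-responsive element in front of genes for protective proteins and sugars. DREB2A belongs to a related branch of the family and is best known from responses to drought and heat.

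The 3 DREB1 genes of chromosome 9 were higher after the cold night in both cultivars. The cold ratios of OsDREB1B and OsDREB1A ranked near the top among genes with at least 1 RPKM in a group of the comparison. OsICE1 was 2.80-fold higher after cold in ERY and 1.41-fold higher in S.AND. OsDREB2A and OsICE2 differed by less than 1.5-fold with cold in both cultivars. Of the 10 genes, 7 averaged 1 RPKM or more in at least 1 group of every comparison, the level asked for before a ratio was counted. OsDREB1C, OsDREB1F and OsDREB1G did not reach it. By this count 4 of the 7 were at least 2-fold higher in ERY COLD than in ERY CONTROL (OsDREB1A, OsDREB1B, OsDREB1H and OsICE1) and 0 were at least 2-fold lower, while 8.19% of the 23936 genes counted were that much higher and 6.66% that much lower. In S.AND COLD over S.AND CONTROL 3 of the 7 were at least 2-fold higher (OsDREB1A, OsDREB1B and OsDREB1H) and 0 lower, against 5.42% higher and 9.22% lower among 24203 genes. In S.AND, OsDREB1A and OsDREB1H reached 1 RPKM in COLD alone, with CONTROL means of 0.959 and 0.769 RPKM. They could therefore not have been counted as lower there. The median log2 ratio of the 7 genes was 1.45 in ERY, where that of all counted genes was 0.03, and 0.77 in S.AND, where that of all counted genes was 0.00. In RNA from whole anthers, fewer cells of a type and less RNA per cell cannot be told apart. Of 13 marker genes for anther and neighbouring tissues, 0 were at least 2-fold higher and 3 at least 2-fold lower after cold in each cultivar. They included both genes for chlorophyll a/b binding proteins, of which LOC_Os04g59440 averaged 50.4 RPKM in ERY COLD and 215 RPKM in ERY CONTROL, and 28.8 RPKM in S.AND COLD and 151 RPKM in S.AND CONTROL. Their part in the cold ratios of the DREB1 and ICE genes was not tested.

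**Figure D1:**
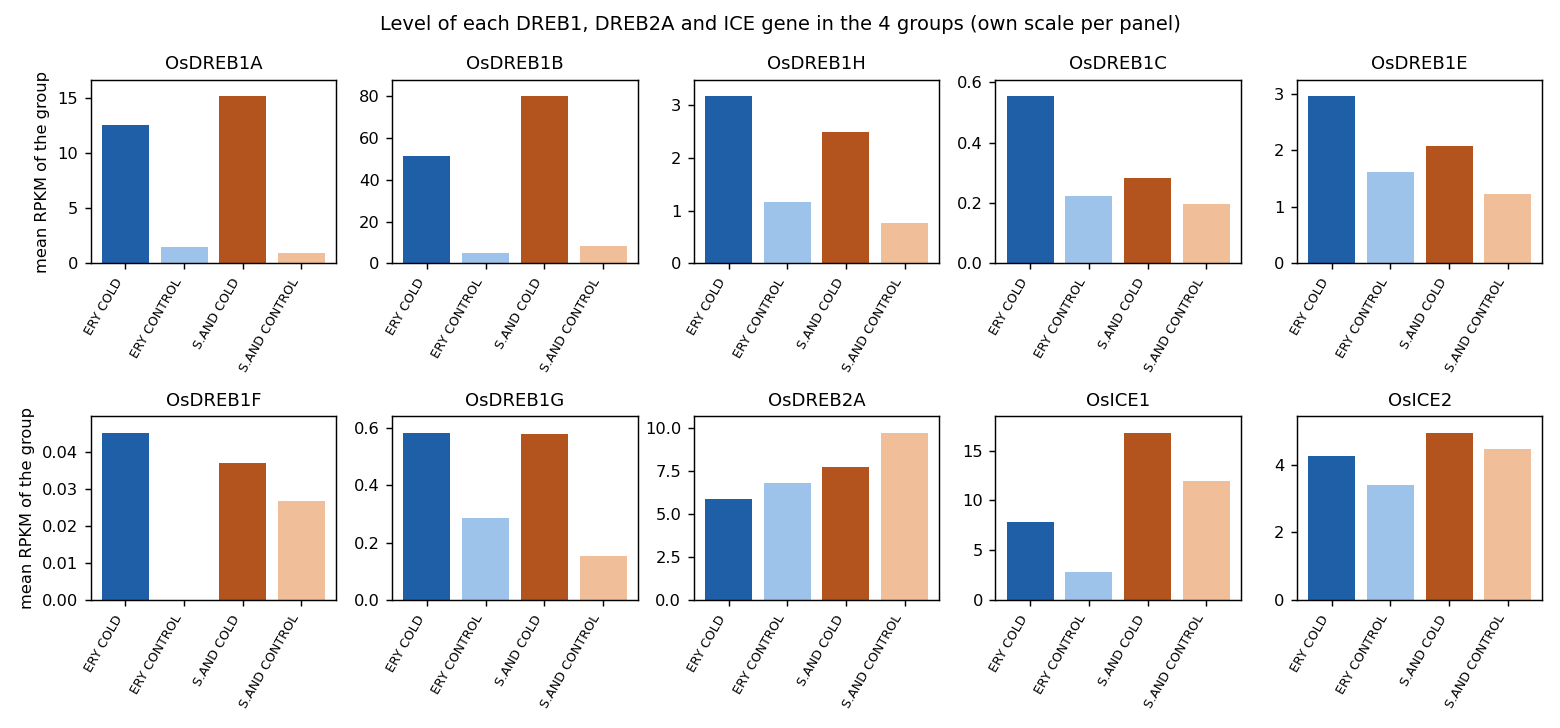
Mean RPKM of each of the 10 genes (vertical axis, starting at 0, with its own scale in each panel) in ERY COLD, ERY CONTROL, S.AND COLD and S.AND CONTROL; each bar is the authors' mean of 3 samples and has no error bar, since values per sample were not analysed here. OsDREB1B had the tallest bars, at 51.2 RPKM (ERY COLD) and 79.9 RPKM (S.AND COLD), while OsDREB1F stayed under 0.05 RPKM in every group.

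OsICE1 (LOC_Os11g32100), named after the Arabidopsis inducer of CBF expression, averaged 7.82 RPKM in ERY COLD and 2.80 RPKM in ERY CONTROL. In S.AND it averaged 16.8 RPKM in COLD and 11.9 RPKM in CONTROL. Both S.AND groups thus lay above both ERY groups. The log2 ratio of COLD over CONTROL was 1.48 in ERY and 0.49 in S.AND. The difference of these, ERY minus S.AND, was 0.99, at percentile 94.6 of the 22639 genes with a difference of this kind. In the 24 °C groups OsICE1 was 4.26-fold lower in ERY than in S.AND, a log2 ratio of -2.09, and in the 8 °C groups it was 2.14-fold lower, a log2 ratio of -1.10. It was the member at least 2-fold apart between the cultivars, at both temperatures, and 0 members were at least 2-fold higher in ERY. Among 24784 genes, 11.2% were at least 2-fold lower and 7.90% at least 2-fold higher in ERY CONTROL than in S.AND CONTROL. For ERY COLD over S.AND COLD these shares were 6.85% and 6.91% of 24244 genes.

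Markers of other floral tissue and of the tapetum also differed between the cultivars, and their part in the OsICE1 values was not tested. The pistil gene DL averaged 14.1 RPKM in ERY COLD and 12.4 RPKM in ERY CONTROL, with 2.59 RPKM in S.AND COLD and 5.62 RPKM in S.AND CONTROL. OsMADS1, a lemma and palea gene, averaged 13.7 RPKM in ERY COLD and 10.4 RPKM in ERY CONTROL, with 4.54 RPKM in S.AND COLD and 4.79 RPKM in S.AND CONTROL. Both were therefore higher in ERY at both temperatures. The third gene of these tissues, OsMADS14, averaged 72.0 RPKM in ERY COLD and 62.5 RPKM in ERY CONTROL, and 94.3 RPKM in S.AND COLD and 72.9 RPKM in S.AND CONTROL. Of the 4 tapetum genes listed, 3 were lower in ERY at both temperatures. CYP704B2, a fatty acid hydroxylase gene of pollen wall formation, averaged 600.0 RPKM in ERY COLD and 657 RPKM in ERY CONTROL, and 1951 RPKM in S.AND COLD and 3471 RPKM in S.AND CONTROL. It was thus 3.25-fold lower in ERY than in S.AND in the COLD groups and 5.28-fold lower in the CONTROL groups. EAT1, a basic helix-loop-helix gene, was 1.81-fold lower in the COLD groups and 1.55-fold lower in the CONTROL groups, and TDR, another of that family, 1.11-fold and 1.35-fold lower. OsC6, a lipid transfer protein gene, was the fourth and had the highest level of the 13 markers. It averaged 20286 RPKM in ERY COLD, 25952 RPKM in ERY CONTROL, 19829 RPKM in S.AND COLD and 24571 RPKM in S.AND CONTROL. The listed anther gene WDA1 and the stamen genes were higher in ERY at both temperatures. In the COLD and CONTROL groups WDA1 was 1.33-fold and 1.42-fold higher, and OsMADS16 1.43-fold and 1.15-fold. OsMADS4 was 1.25-fold and 1.17-fold higher, and OsMADS2 1.04-fold and 1.02-fold.

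OsICE2 (LOC_Os01g70310), the second ICE gene, differed little among the groups. It averaged 4.27 RPKM in ERY COLD and 3.39 RPKM in ERY CONTROL, and 4.94 RPKM in S.AND COLD and 4.48 RPKM in S.AND CONTROL. The log2 ratios of COLD over CONTROL were 0.33 in ERY and 0.14 in S.AND. The level of OsICE1 over that of OsICE2, per unit of length, was 1.83 in ERY COLD, 0.825 in ERY CONTROL, 3.40 in S.AND COLD and 2.66 in S.AND CONTROL. ERY CONTROL was thus the group in which OsICE2 had the higher level of the pair.

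OsDREB1B (LOC_Os09g35010) had the highest level of the 7 DREB1 genes in each of the 4 groups. It averaged 51.2 RPKM in ERY COLD and 4.87 RPKM in ERY CONTROL, a 10.5-fold ratio (log2 ratio 3.39). In S.AND it averaged 79.9 RPKM in COLD and 8.36 RPKM in CONTROL, a 9.56-fold ratio (log2 ratio 3.26). The ratio ranked 87 from the top among the 23936 genes counted in ERY and 55 among the 24203 counted in S.AND. The lower level in ERY was present at both temperatures, with a log2 ratio of ERY over S.AND of -0.64 in the COLD groups and -0.78 in the CONTROL groups.

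OsDREB1A (LOC_Os09g35030), a DREB1 gene whose overexpression raised cold tolerance in transgenic rice, averaged 12.5 RPKM in ERY COLD and 1.44 RPKM in ERY CONTROL, an 8.72-fold ratio (log2 ratio 3.12). In S.AND it averaged 15.2 RPKM in COLD and 0.959 RPKM in CONTROL, a 15.8-fold ratio (log2 ratio 3.99). The S.AND ratio ranked 28 from the top and the ERY ratio 120. The order of the cultivars turned with temperature, since the log2 ratio of ERY over S.AND was -0.28 in the COLD groups and 0.59 in the CONTROL groups. The difference of the cold ratios, ERY minus S.AND, was -0.86, at percentile 2.49 of the same 22639 genes, of which the middle 90% lay between -0.58 and 1.03. The S.AND CONTROL mean behind this difference is under 1 RPKM. With 1 RPKM added to each mean, the log2 ratios of OsDREB1A were closer together, at 2.47 in ERY and 3.05 in S.AND. A ratio of at least 8-fold in both cultivars was found in 48 of 22642 genes, or 0.212%, with OsDREB1A and OsDREB1B among them.

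OsDREB1H (LOC_Os09g35020) lies between the other cluster genes by locus number and had a lower level than either after cold. It averaged 3.16 RPKM in ERY COLD and 1.16 RPKM in ERY CONTROL, a 2.72-fold ratio (log2 ratio 1.45). In S.AND it averaged 2.48 RPKM in COLD and 0.769 RPKM in CONTROL, a 3.23-fold ratio (log2 ratio 1.69). The COLD groups were above the CONTROL groups of both cultivars. With 1 RPKM added to each mean before the ratio, its log2 ratio was 0.95 in ERY and 0.98 in S.AND, just under 2-fold. The 3 cluster genes are related copies, and the sources used here do not say how reads that fit several copies were assigned.

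**Figure D2:**
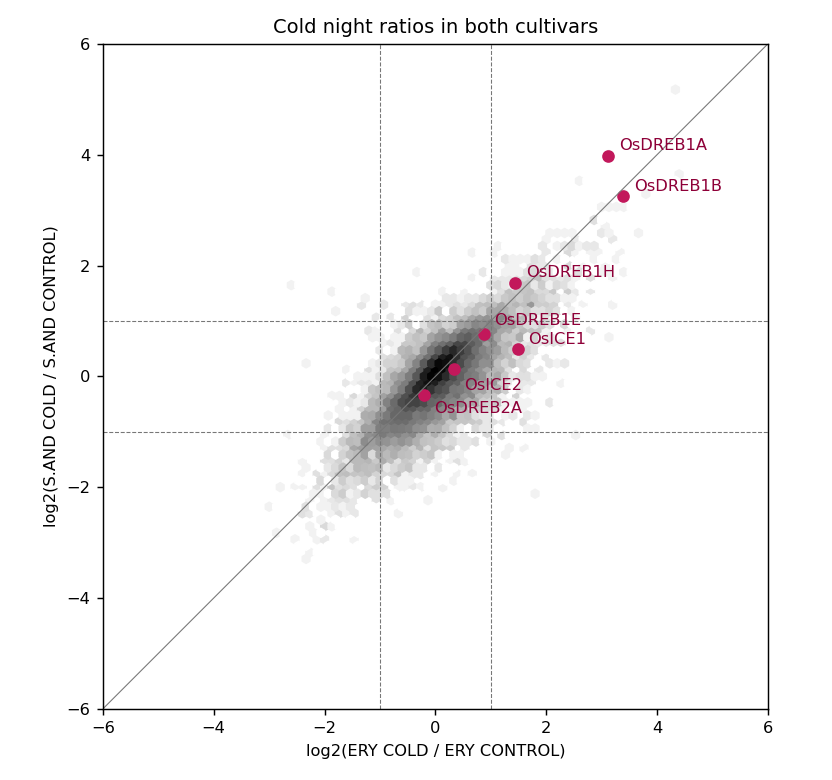
Log2 ratio of COLD over CONTROL in ERY (horizontal axis) and in S.AND (vertical axis) for all genes that averaged 1 RPKM or more in either group of both cultivars and had no mean of 0 (grey hexagons, darker for more genes), and for 7 of the 10 named genes (points); dashed lines mark 2-fold and the diagonal marks equal ratios. OsDREB1A and OsDREB1B lie far from the bulk in both directions, while OsDREB2A and OsICE2 lie within it.

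The genes numbered just before the cluster did not share its ratios. Of the 5 identifiers before OsDREB1B, 4 had at least 1 RPKM, and their COLD over CONTROL ratios ran from 0.752-fold to 1.23-fold in ERY and from 0.895-fold to 1.41-fold in S.AND. LOC_Os09g35000, the identifier just before OsDREB1B, averaged 12.8 RPKM in ERY COLD and 10.4 RPKM in ERY CONTROL, and 12.7 RPKM in S.AND COLD and 9.01 RPKM in S.AND CONTROL. After OsDREB1A the next identifier in the table is LOC_Os09g35530, a wide step in locus number, so the 5 identifiers that follow are not called neighbours. Of these, LOC_Os09g35540 was the 1 with at least 1 RPKM, at 45.3 RPKM in ERY COLD and 41.1 RPKM in ERY CONTROL, and 37.9 RPKM in S.AND COLD and 33.7 RPKM in S.AND CONTROL.

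**Figure D3:**
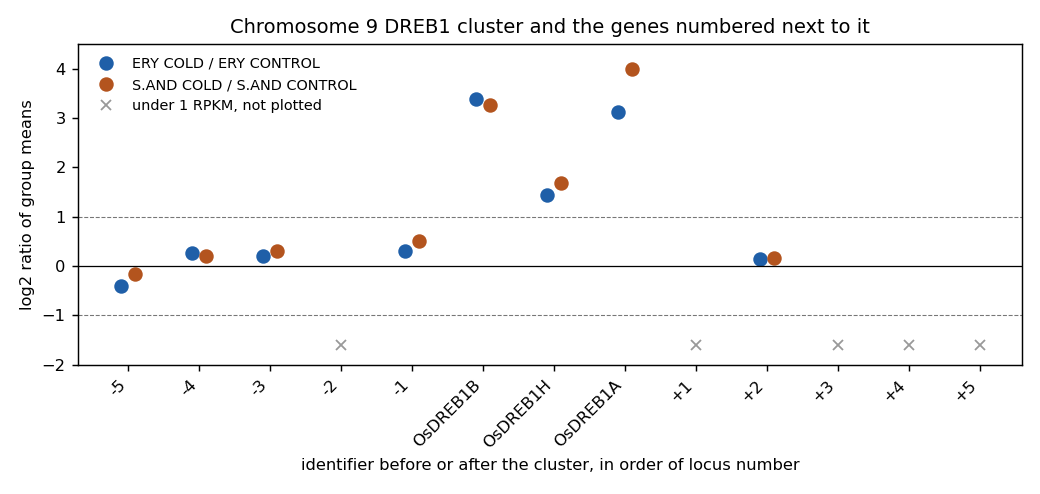
Log2 ratio of COLD over CONTROL (vertical axis) for the 3 cluster genes and the 5 identifiers before and 5 after them in locus order (horizontal axis, evenly spaced and not to genomic scale), with ERY and S.AND as separate points and crosses for identifiers under 1 RPKM. The cluster genes lie between 1.45 and 3.99, and the plotted identifiers before them between -0.41 and 0.50.

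OsDREB1E (LOC_Os04g48350) was the highest of the 4 DREB1 members outside the cluster. It averaged 2.95 RPKM in ERY COLD and 1.61 RPKM in ERY CONTROL, and 2.08 RPKM in S.AND COLD and 1.22 RPKM in S.AND CONTROL. The COLD over CONTROL ratios of 1.83-fold in ERY and 1.71-fold in S.AND were below the 2-fold mark, and lay at percentiles 90.2 and 91.4 of all genes counted. In the COLD groups the level was 1.42-fold higher in ERY than in S.AND, and in the CONTROL groups 1.32-fold higher.

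The other 3 DREB1 genes averaged less than 1 RPKM in every group. OsDREB1C (LOC_Os06g03670) averaged 0.554 RPKM in ERY COLD and 0.223 RPKM in ERY CONTROL, and 0.284 RPKM in S.AND COLD and 0.197 RPKM in S.AND CONTROL. OsDREB1G (LOC_Os02g45450) averaged 0.583 RPKM in ERY COLD and 0.287 RPKM in ERY CONTROL, and 0.580 RPKM in S.AND COLD and 0.152 RPKM in S.AND CONTROL. Both had their higher means in the COLD groups, at levels too low to be counted.

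OsDREB1F (LOC_Os01g73770) averaged 0.0450 RPKM in ERY COLD and was listed at 0 in ERY CONTROL, and it averaged 0.0369 RPKM in S.AND COLD and 0.0265 RPKM in S.AND CONTROL. Many very low values in the table fell on steps of whole reads. Of 1217 genes above 0 and under 0.015 RPKM in both ERY groups, 555 (45.6%) lay at a ratio of single reads. What share would lie there without such steps was not worked out. On these steps the 4 means of OsDREB1F were met, within 0.1%, by 1 set of reads among those with up to 4 reads per group: 3 reads in ERY COLD, 0 in ERY CONTROL, 2 in S.AND COLD and 2 in S.AND CONTROL. Multiples of this set would fit as well and were not tried. The gene was therefore read 7 times in the 12 samples only if this smallest set is the true one, and no ratio is given. With that set, a group mean of 1 RPKM for a gene of its length stood for 35.2 to 82.0 reads in the 3 samples of a group together. The number depends on which samples held them.

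Estimated from the same steps, the RPKM value of 1 read was not equal over the samples, which bears on all low levels. By this estimate it differed by up to 2.33-fold over the 12 samples. Within a group it differed by up to 1.29-fold in ERY COLD, 1.54-fold in ERY CONTROL, 1.42-fold in S.AND COLD and 2.14-fold in S.AND CONTROL. The widest range was in S.AND CONTROL, which also had the lowest mean of OsDREB1A, OsDREB1H, OsDREB1C, OsDREB1E and OsDREB1G. A link between this range and those means was not tested.

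The DREB1 members were added up, and the shares below are of this sum. It leaves out DREB1 genes that are not members. LOC_Os06g06970, listed below as such a gene, averaged 2.03 RPKM in ERY COLD and 2.91 RPKM in ERY CONTROL, and 1.40 RPKM in S.AND COLD and 2.52 RPKM in S.AND CONTROL. The 7 members reached 71.0 RPKM in ERY COLD and 9.59 RPKM in ERY CONTROL, a 7.41-fold ratio. In S.AND the sum was 100.5 RPKM in COLD and 11.7 RPKM in CONTROL, an 8.61-fold ratio. The ERY sum was 0.706 of the S.AND sum after cold and 0.821 of it at 24 °C. The chromosome 9 cluster made up 94.2% of the sum in ERY COLD and 77.9% in ERY CONTROL, and 97.0% in S.AND COLD and 86.3% in S.AND CONTROL. OsDREB1B alone made up 72.1% in ERY COLD and 50.8% in ERY CONTROL, and 79.5% in S.AND COLD and 71.6% in S.AND CONTROL. The share of OsDREB1E was lower after cold, with 4.16% of the sum in ERY COLD and 16.8% in ERY CONTROL, and 2.07% in S.AND COLD and 10.4% in S.AND CONTROL.

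**Figure D4:**
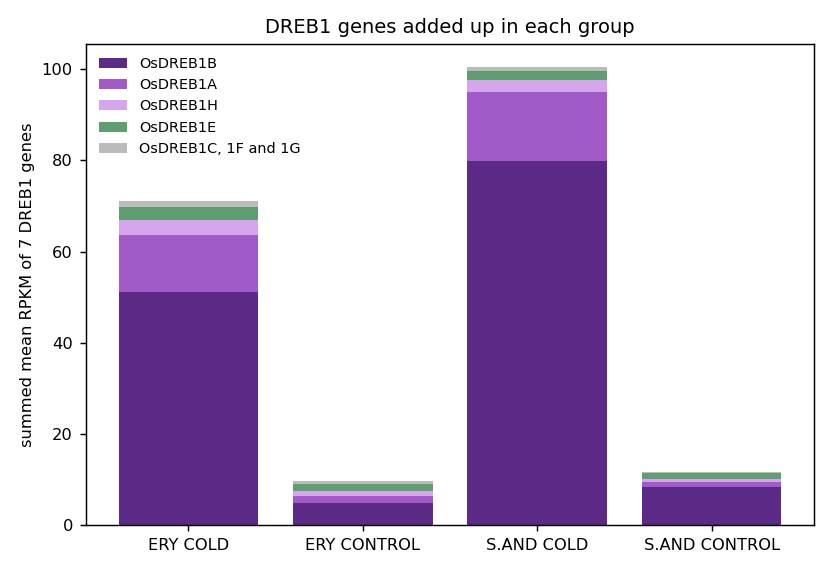
Sum of the mean RPKM of the 7 DREB1 members (vertical axis, from 0) in the 4 groups, divided by gene. DREB1 genes that are not members are left out. The sum was 71.0 RPKM in ERY COLD and 9.59 RPKM in ERY CONTROL, and 100.5 RPKM in S.AND COLD and 11.7 RPKM in S.AND CONTROL, with OsDREB1B the largest portion of each bar.

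The proportions among the cluster genes differed by group. OsDREB1B was 4.08 times the level of OsDREB1A in ERY COLD and 3.38 times in ERY CONTROL, and 5.26 times in S.AND COLD and 8.72 times in S.AND CONTROL. The excess of OsDREB1B over OsDREB1A was thus slightly larger after cold in ERY and smaller in S.AND. The S.AND CONTROL value rests on an OsDREB1A mean of 0.959 RPKM. These ratios between related copies have no measure of spread, and how shared reads were assigned is not known. Over OsDREB1H, the excess of OsDREB1B was 16.2-fold in ERY COLD and 4.19-fold in ERY CONTROL, and 32.2-fold in S.AND COLD and 10.9-fold in S.AND CONTROL, larger after cold in both cultivars.

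OsDREB2A (LOC_Os01g07120) was the member with lower means after cold in both cultivars, by a small margin. It averaged 5.85 RPKM in ERY COLD and 6.77 RPKM in ERY CONTROL, a ratio of 0.864. In S.AND it averaged 7.70 RPKM in COLD and 9.68 RPKM in CONTROL, a ratio of 0.795. The log2 ratio of ERY over S.AND was -0.40 in the COLD groups and -0.52 in the CONTROL groups. Unlike the DREB1 cluster, OsDREB2A and OsICE2 stood among the bulk of genes, at percentiles 30.6 and 73.0 of the ERY cold ratio, and at 29.0 and 61.7 of that of S.AND.

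Of the 7 members with a difference of cold ratios between the cultivars, 5 had the larger log2 ratio in ERY (OsDREB1B, OsDREB1E, OsDREB2A, OsICE1 and OsICE2), while OsDREB1A and OsDREB1H had the larger one in S.AND. For OsDREB1B, OsDREB1E, OsDREB2A and OsICE2 the difference was between 0.10 and 0.19. The difference could not be tested, since that needs values per sample.

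Genes whose 4 means ran most like those of a member were sought among the 18763 genes with at least 5 RPKM in a group, by the distance between log2 means centred per gene. For OsDREB1A the nearest was LOC_Os03g60570, described in the study as the C2H2 zinc finger gene ZOS3-22, at a distance of 0.263. It averaged 33.0 RPKM in ERY COLD and 4.48 RPKM in ERY CONTROL, and 40.2 RPKM in S.AND COLD and 3.35 RPKM in S.AND CONTROL. The next were an SPX domain gene (LOC_Os03g29250, distance 0.343) and a glycerophosphoryl diester phosphodiesterase gene (LOC_Os02g31030, distance 0.369). For OsDREB1B they were LOC_Os05g03865 (distance 0.237), the ankyrin repeat gene LOC_Os01g61990 (distance 0.281) and LOC_Os06g09990 (distance 0.285). LOC_Os05g03865 had a higher level than OsDREB1B throughout, at 211 RPKM in ERY COLD and 22.3 RPKM in ERY CONTROL, and 286 RPKM in S.AND COLD and 33.8 RPKM in S.AND CONTROL. OsICE1 was nearest to LOC_Os07g48910 (distance 0.217), LOC_Os02g53690 (distance 0.255) and LOC_Os06g50220 (distance 0.262). OsDREB2A, with its small ratios, had closer matches, the nearest being LOC_Os01g01030 (distance 0.0330). With 4 means per gene, the likeness is a description only.

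Other genes linked to DREB1 genes or to cold in plants were taken as lists by role, from general knowledge. Earlier results of these data were known when the lists were made. Counts in the lists are therefore set beside the shares of all genes as a description only. Names are given for those that RefSeq carries under the same name on the same chromosome, or that the study annotates, which covered 21 of 40 genes. Of 7 other DREB genes, 3 reached 1 RPKM in each cold comparison, with 1 at least 2-fold higher in ERY, 0 that much higher in S.AND and 0 lower in either. Among all genes counted, 8.19% were that much higher and 6.66% lower in ERY, and 5.42% higher and 9.22% lower in S.AND. OsDREB2B was far above OsDREB2A, at 48.5 RPKM in ERY COLD and 42.6 RPKM in ERY CONTROL, and 66.3 RPKM in S.AND COLD and 41.2 RPKM in S.AND CONTROL. OsDREB2D averaged 2.14 RPKM in ERY COLD and 1.06 RPKM in ERY CONTROL, and 0.753 RPKM in S.AND COLD and 0.429 RPKM in S.AND CONTROL. LOC_Os06g06970, listed here as a DREB1 gene without a matched name, had lower means after cold, at 2.03 RPKM in ERY COLD and 2.91 RPKM in ERY CONTROL, and 1.40 RPKM in S.AND COLD and 2.52 RPKM in S.AND CONTROL. In both CONTROL groups it was above OsDREB1E.

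Genes that act before DREB1 transcription were mostly higher after cold, by less than 2-fold. All 10 upstream regulators reached 1 RPKM, and 0 in ERY and 2 in S.AND were at least 2-fold higher, with 0 lower and median log2 ratios of 0.52 in ERY and 0.67 in S.AND. OsMAPK3, a kinase that phosphorylates OsICE1 in rice, averaged 12.3 RPKM in ERY COLD and 7.58 RPKM in ERY CONTROL, and 14.2 RPKM in S.AND COLD and 4.97 RPKM in S.AND CONTROL. COLD1, a membrane protein of rice chilling perception, averaged 53.4 RPKM in ERY COLD and 47.6 RPKM in ERY CONTROL, and 57.7 RPKM in S.AND COLD and 47.6 RPKM in S.AND CONTROL. Of 7 genes listed as calmodulin-binding transcription activators, a family that acts on CBF genes in Arabidopsis, 1 was at least 2-fold higher in each cultivar and 0 were lower, with medians of 0.37 in ERY and 0.46 in S.AND. It was LOC_Os03g27080, at 64.2 RPKM in ERY COLD and 18.6 RPKM in ERY CONTROL, and 78.8 RPKM in S.AND COLD and 22.4 RPKM in S.AND CONTROL. Beside both lists, 8.19% of all counted genes were at least 2-fold higher in ERY and 5.42% in S.AND, with 6.66% and 9.22% lower. With so few genes, these counts are not read as a result about either list.

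Of 4 MYB genes tied to cold in rice, 3 were at least 2-fold higher in ERY COLD and 2 in S.AND COLD, and 0 were lower, with medians of 1.58 in ERY and 0.98 in S.AND. The shares of all counted genes were 8.19% higher and 6.66% lower in ERY, and 5.42% higher and 9.22% lower in S.AND. With 4 genes, listed with earlier results known, the counts are not read as a result about the list. OsMYBS3, a repressor of DREB1 genes in rice, averaged 57.7 RPKM in ERY COLD and 26.8 RPKM in ERY CONTROL, and 56.4 RPKM in S.AND COLD and 26.6 RPKM in S.AND CONTROL. It was thus higher in the same groups as the DREB1 cluster. OsMYB4 averaged 46.6 RPKM in ERY COLD and 11.2 RPKM in ERY CONTROL, and 54.2 RPKM in S.AND COLD and 13.6 RPKM in S.AND CONTROL. OsMYB2 averaged 2.01 RPKM in ERY COLD and 0.222 RPKM in ERY CONTROL, and 1.11 RPKM in S.AND COLD and 0.603 RPKM in S.AND CONTROL. In both cultivars it reached 1 RPKM in COLD alone, so it could not have been counted as lower.

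Genes listed downstream, for dehydrins, other protective proteins and sugar or proline synthesis, were mixed, with medians under 0 in both cultivars. Whether they are targets of DREB1 proteins in anthers was not tested. In ERY 3 of 12 were at least 2-fold higher after cold and 0 lower, with a median log2 ratio of -0.38. In S.AND 1 of 11 was at least 2-fold higher and 5 lower, with a median of -0.48. For all counted genes the shares were 8.19% higher and 6.66% lower in ERY, and 5.42% higher and 9.22% lower in S.AND. OsTPP1, a trehalose-phosphate phosphatase gene, was higher in both cultivars, at 213 RPKM in ERY COLD and 96.9 RPKM in ERY CONTROL, and 189 RPKM in S.AND COLD and 67.8 RPKM in S.AND CONTROL. The dehydrin gene RAB16B averaged 4.75 RPKM in ERY COLD and 8.57 RPKM in ERY CONTROL, and 1.96 RPKM in S.AND COLD and 9.08 RPKM in S.AND CONTROL. RAB16D averaged 2.54 RPKM in ERY COLD and 0.438 RPKM in ERY CONTROL, and 0.664 RPKM in S.AND COLD and 0.475 RPKM in S.AND CONTROL. In ERY it reached 1 RPKM in COLD alone, so it could not have been counted as lower there. The salt-responsive lectin gene SalT, singled out after its values were seen, was higher after cold in ERY and lower in S.AND, at 89.6 RPKM in ERY COLD and 29.1 RPKM in ERY CONTROL, and 164 RPKM in S.AND COLD and 429 RPKM in S.AND CONTROL.

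**Figure D5:**
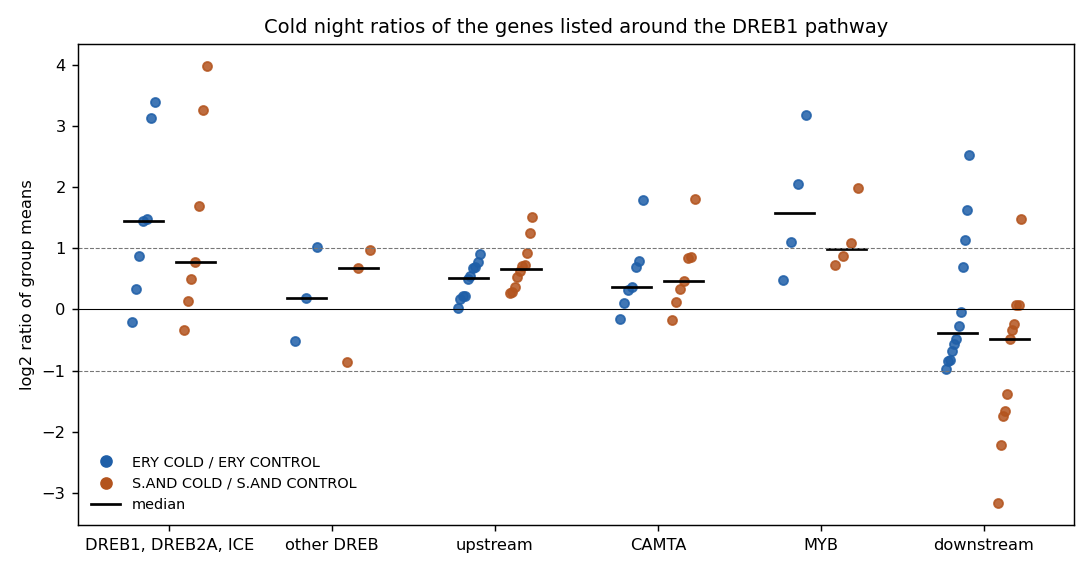
Log2 ratio of COLD over CONTROL (vertical axis) for each gene that reached 1 RPKM in a group of the comparison, by list (horizontal axis), with ERY left and S.AND right in each list; black bars are medians and dashed lines mark 2-fold. The median of the DREB1, DREB2A and ICE genes was 1.45 in ERY and 0.77 in S.AND; for the downstream genes it was -0.38 in ERY and -0.48 in S.AND.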

How the data were processed

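Poly(A) RNA of anthers was sequenced in 12 samples. The authors used CLC Genomics Workbench to align reads to MSU 7.0, expressed genes as RPKM and scaled them by totals. The deposited table gives 4 columns of the authors' RPKM means, 1 per group, and 0 columns per sample. Another 4 columns hold the authors' fold changes and corrected p-values (Baggerley's test) and were not used. Exact depths were not analysed here.

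Ratios of group means were computed with no pseudocount, and counted at 2-fold among genes with at least 1 RPKM in a group of the comparison. Named were all 10 members, up to 4 genes per list with the largest absolute mean cold log2 ratio or a known action on DREB1 genes, the 5 identifiers either side of the cluster, and the 3 genes most like each member with at least 5 RPKM (pseudocount 0.1). SalT was added after its values were seen. List genes without a matched name were only counted, save 1 given by identifier, and of the genes most like OsDREB2A only the nearest was given. The members and lists were chosen with earlier results of these data known. RefSeq was used for names only. Alternatives were pseudocounts of 0.1 and 1, centring on the median gene, no filter, a filter at 10 RPKM, and 1.5-fold and 3-fold marks. The code was tested on simulated data. Python 3.11.15, NumPy 2.4.6, pandas 2.3.3 and matplotlib 3.10.9 were used.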

Additional observations from a re-analysis of the deposited data

How the results depend on the processing

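In ERY COLD over ERY CONTROL, 4 members were at least 2-fold apart, and this count was 7 with no filter, 2 with a filter at 10 RPKM and 2 at 3-fold. In ERY CONTROL over S.AND CONTROL the count of 1 became 2 with no filter and 4 at 1.5-fold. In ERY COLD over S.AND COLD the count of 1 became 2 at 1.5-fold and 0 at 3-fold. Of 84 alternative values of member ratios, with either pseudocount or centred on the median gene, 82 kept their side of 2-fold, 0 changed direction, and 2, both of OsDREB1H with 1 RPKM added, came under 2-fold. No paired analysis was possible because the table holds group means only, and leaving out each replicate was not run for the same reason. Ratios of members under 1 RPKM in a group rest on few reads.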
